A study of Oryctolagus cuniculus with 9 samples.

Results

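The genes described here are histone and chromatin modifiers, 85 of the 19291 genes in the deposited table of a sequencing study of estradiol-treated cells. Of these, 72 were taken by the start of their symbol: the KDM demethylases, the KMT and SETD methyltransferases, the KAT acetyltransferases, the HDAC and SIRT deacetylases, the PRMT arginine methyltransferases, the CHD remodellers, the BRD bromodomain proteins, and the TET and DNMT enzymes of DNA methylation. The other 13 were named one by one: AHDC1, ARID1A, ARID1B, ASXL2, BCOR, BCORL1, CREBBP, EP300, EZH1, EZH2, HCFC1, HCFC2 and JMJD1C. Levels were high enough to test 83 of the 85, among 12324 genes tested in all. PRMT8, an arginine methyltransferase known from the brain, was listed at 0 in every library, and KDM4D, a demethylase known from the testis, had between 0 and 11 deposited count units per library.

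Messenger RNA had been sequenced from 9 libraries of HA-VSMC cells, which the labels assign to the rabbit, a species that was not checked. The 3 groups of 3 libraries were controls, tagged WT for concentration, cells given β-estradiol at 50 nM, and cells given it at 250 nM, all kept in serum-containing RPMI medium. Treatment lasted 48 h, the estradiol had been dissolved in DMSO, and it is not stated whether the controls received that vehicle. The series asks how estrogen acts in adenomyosis, the growth of endometrial tissue within the muscle of the uterus. The treatment text of the labels names 250 nM alone, the controls also carry the treatment tag estrogen, and no tissue of origin is given for the line. Whether each replicate was its own culture is not stated, and the p-values reflect no more than the spread among these libraries, which may be technical.

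Chromatin modifiers add or remove acetyl and methyl groups on histone tails, methylate or oxidise cytosine in DNA, or move nucleosomes with the energy of ATP. Most work in large complexes, where an enzyme is paired with scaffold proteins, readers and adaptors that bring it to DNA. Acetylation by EP300 and CREBBP and methylation of histone H3 by the SET1 and MLL enzymes accompany active transcription, and the HDAC complexes, EZH2 and the BCOR proteins are known as repressors. The ligand-bound estrogen receptor is known to recruit such coactivators and corepressors to its target genes.

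The libraries held 54718407 to 72274464 count units, of which about 4 stand for 1 fragment, and the modifiers together took between 0.573% and 0.639% of them. The smooth muscle gene ACTA2 lay at 1172.5 to 1375 FPKM (fragments per kilobase of transcript, scaled to library size), while DES was listed at 0 in every library and MYOCD reached at most 0.660 FPKM. Medians were 431 FPKM for CALD1, 27.8 for SMTN and 5.10 for MYH11, but 0.429 for MYLK and 0.433 for LMOD1. TAGLN and CNN1, also smooth muscle genes, had no row. COL1A1 and COL1A2, collagen genes of fibroblasts, lay between 1891 and 3122 FPKM. Of 7 endothelial genes, KDR was at 0 in every library, EMCN lay at 0.308 to 1.1998 FPKM, and PECAM1 and TIE1 were also above 0 in every library, with a summed level of 0.599 to 1.56 FPKM. The epithelial gene EPCAM was at 0 in every library, CDH1 and KRT19 reached at most 0.0123 and 0.0777 FPKM, and KRT8 and KRT18 had no row. The 5 leukocyte genes with a row summed to at most 0.278 FPKM, and CD68 had none. Summed over 6 fibroblast genes, of which those 2 collagen genes make up nearly all (DCN had a median of 75.6 FPKM, and LUM, THY1 and PDGFRA were lower), the level was 5157 to 5371 FPKM at 50 nM and 5229 to 5434 FPKM at 250 nM, against 4634 to 4898 FPKM in controls. Of those 6 genes, 2 were called higher at 50 nM and 1 at 250 nM, beside 1.55% and 0.203% of all genes tested. The part of the fibroblast genes in the results below was not tested. In bulk RNA, fewer cells of a type and less RNA per cell cannot be told apart.

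Most of the modifiers were moderately abundant. Their median level over 9 libraries was 11.4 FPKM, with quartiles of 5.70 and 23.2 FPKM, and 45 of the 85 reached 10 FPKM. The median of all genes tested was 9.09 FPKM. HDAC1, a class I histone deacetylase, was the most abundant at 86.2 FPKM (range 82.2 to 90.4 over 9 libraries). It was followed by DNMT1, which copies DNA methylation after replication, at 56.1 FPKM (54.2 to 59.5), and by CHD3, a nucleosome remodeller of the NuRD complex, at 53.7 FPKM (50.9 to 57.8). BRD2, a reader of acetylated histones, had 50.8 FPKM (46.5 to 55.0), and HDAC3, the deacetylase of the NCOR complexes, had 48.8 FPKM (45.5 to 52.0). The ranges of DNMT1, CHD3 and BRD2 overlapped their neighbours in that order, and HDAC1 stood above all of them in every library.

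The lowest of the genes tested were BCORL1 at 1.39 FPKM (0.970 to 1.88), SETD4 at 1.62 FPKM (1.29 to 1.90) and the mitochondrial sirtuin SIRT4 at 1.72 FPKM (1.18 to 2.29). Their ranges overlapped. By role, the median level was 17.9 FPKM for 6 bromodomain proteins, 13.7 FPKM for 9 remodellers, 12.8 FPKM for 13 deacetylases and 12.1 FPKM for 9 acetyltransferases. It was 10.4 FPKM for 5 arginine methyltransferases, 9.84 FPKM for 6 adaptors and cofactors, 9.70 FPKM for 17 lysine demethylases, 8.69 FPKM for 15 lysine methyltransferases and 5.03 FPKM for 5 enzymes of DNA methylation. Within a role the levels spread more widely than between roles: among the enzymes of DNA methylation DNMT3B lay at 2.35 FPKM and DNMT1 at 56.1 FPKM.

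**Figure D1:**
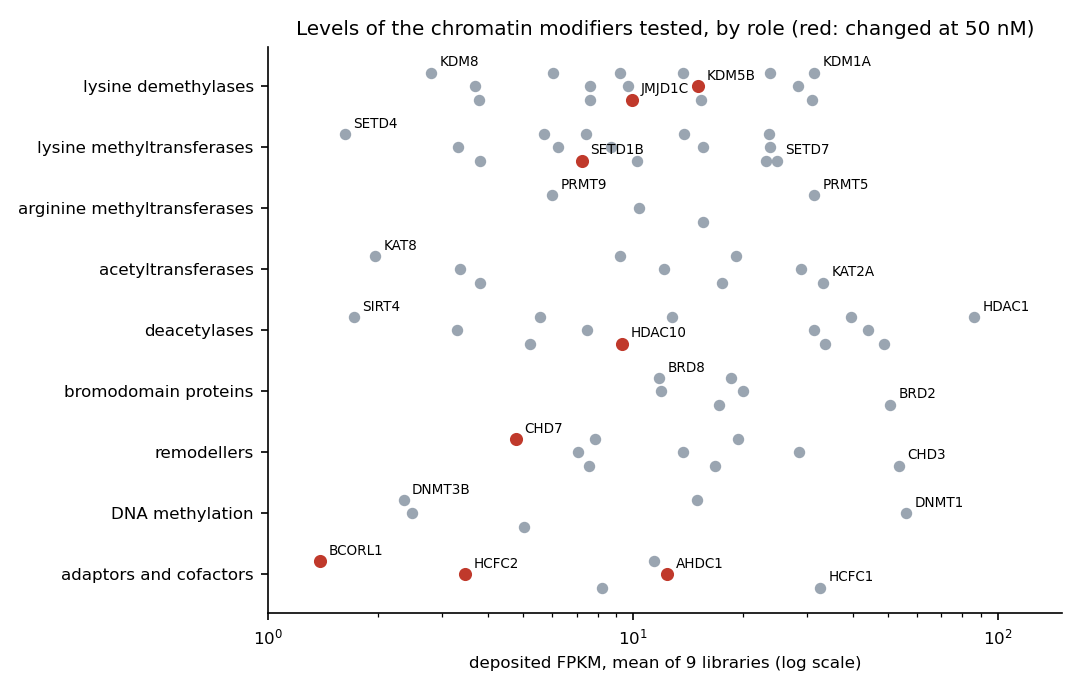
Mean deposited FPKM over 9 libraries (horizontal log axis) of the 83 modifiers tested, one point per gene, arranged by role; red points are the 8 genes that changed at 50 nM. HDAC1 stands highest at 86.2 FPKM and BCORL1 lowest at 1.39 FPKM, and the changed genes lie in the lower and middle part of the range.

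At 50 nM estradiol, 8 of the 83 modifiers changed against control (edgeR's quasi-likelihood test, Benjamini-Hochberg adjusted p under 0.05), or 9.64% of them, beside 3.25% of all genes tested. JMJD1C, CHD7 and HDAC10 rose, and AHDC1, BCORL1, HCFC2, SETD1B and KDM5B fell, beside 1.55% of all genes called higher and 1.7% called lower. In all 8 the 50 nM and control libraries did not overlap, as in 397 of the 401 genes called among all genes tested. Such a gap is thus no separate evidence. The genes named one by one gave 4 of those 8, out of 13 tested; some of those symbols were picked with earlier results of these data known. Among the families taken by symbol start, 4 of 70 changed, or 5.71%. At an unadjusted p under 0.05 there were 24 of 83 modifiers, beside 15.6% of all genes. In 29 of 83 the groups did not overlap, beside 19% of all genes. Of these, 11 were higher and 18 lower at 50 nM (13.3% and 21.7%), beside 8.88% and 10.1% of all genes. The families taken by symbol start gave 22 of 70 without overlap, or 31.4%.

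The changes were modest in size. A log2 fold change of at least 0.5 in either direction was estimated for 4 of 83 modifiers, AHDC1, BCORL1, HCFC2 and JMJD1C, beside 7.17% of all genes. The median log2 fold change was -0.03 over the modifiers, against -0.002 over all genes; it was 0.00309 without control library 2, -0.0147 without control library 3 and -0.0083 without 50 nM library 3. With all libraries, the median size of change without its sign was 0.0993 in the modifiers and 0.101 in all genes. By role, 3 of 6 adaptors and cofactors and 2 of 16 lysine demethylases changed, beside 3.25% of all genes. The 15 lysine methyltransferases, 13 deacetylases and 9 remodellers held 1 each. All 6 adaptors and cofactors, and JMJD1C among the demethylases, were named one by one, some with earlier results known. The share of the adaptors is therefore no result about that role. None of 9 acetyltransferases, 6 bromodomain proteins, 4 arginine methyltransferases or 5 enzymes of DNA methylation passed edgeR's adjusted threshold. At an unadjusted p under 0.05 those roles held 2, 2, 1 and 2 genes, beside 15.6% of all genes.

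Among the adaptors, AHDC1, a DNA-binding protein with AT-hook motifs whose loss causes Xia-Gibbs syndrome in humans, had the lowest p. It measured 60.3, 61.2 and 64.4 CPM (counts scaled to library size) in controls, 38.6, 40.5 and 36.7 CPM at 50 nM, and 56.1, 58.1 and 58.0 CPM at 250 nM. The 50 nM libraries stood far below all others, and the 250 nM libraries lay just below the controls without overlap. AHDC1 fell by 0.68 ± 0.06 on the log2 scale at 50 nM (SE, n = 3 each, edgeR adjusted p = 1.08e-05), which is 1.61-fold. At 250 nM its log2 fold change against control was -0.11 ± 0.06 (adjusted p = 0.658). Set directly against 50 nM, AHDC1 was higher at 250 nM by 0.57 ± 0.06 (95% interval 0.44 to 0.70, edgeR adjusted p = 0.000366).

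BCORL1 and BCOR are related corepressors that belong to a variant of Polycomb repressive complex 1. BCORL1 measured 13.1, 12.5 and 9.81 CPM in controls, 7.03, 7.44 and 7.22 CPM at 50 nM, and 11.9, 10.3 and 9.92 CPM at 250 nM. The 50 nM libraries were the 3 lowest, and the 250 nM libraries overlapped the controls. BCORL1 fell by 0.71 ± 0.12 on the log2 scale at 50 nM (95% interval -0.96 to -0.45, edgeR adjusted p = 0.00385), and at 250 nM against 50 nM its difference of 0.56 ± 0.12 did not pass (adjusted p = 0.0747). BCOR had 64.9, 66.8 and 57.0 CPM at 50 nM, above the 54.0, 56.6 and 49.2 CPM of the controls without overlap, with a log2 fold change of 0.24 ± 0.07 that did not pass (edgeR adjusted p = 0.0927). At 250 nM BCOR lay at 52.3, 50.2 and 52.2 CPM, within the control range.

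HCFC1 and HCFC2 are host cell factors, scaffolds that join the SET1 and MLL methyltransferases and histone deacetylases to transcription factors. HCFC2 measured 29.1, 34.9 and 29.96 CPM in controls, 21.1, 21.4 and 17.8 CPM at 50 nM, and 22.3, 22.8 and 22.2 CPM at 250 nM. All 6 estradiol libraries lay below all 3 controls. HCFC2 fell at 50 nM by 0.64 ± 0.09 on the log2 scale (edgeR adjusted p = 0.000699) and at 250 nM by 0.48 ± 0.09 (95% interval -0.67 to -0.29, adjusted p = 0.0264). The 250 nM call ended when any single 250 nM library, or control library 2 or 3, was left out, and on either FPKM scale, with adjusted p over all alternatives between 0.000281 and 0.187. In the RefSeq gene table of the assembly mOryCun1.1 HCFC2 overlaps NFYB, whose log2 fold change at 50 nM was -0.22 (adjusted p = 0.145), and whether counting used strand is not stated. HCFC1 had 274, 270 and 257 CPM at 50 nM, against 248, 267 and 241 CPM in controls, and the groups overlapped. ASXL2, a Polycomb-linked partner of the deubiquitinase BAP1, had 47.8 ± 5.35 CPM at 50 nM, against 53.8 ± 3.37 CPM in controls (SD, n = 3 each), and overlapped as well.

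**Figure D2:**
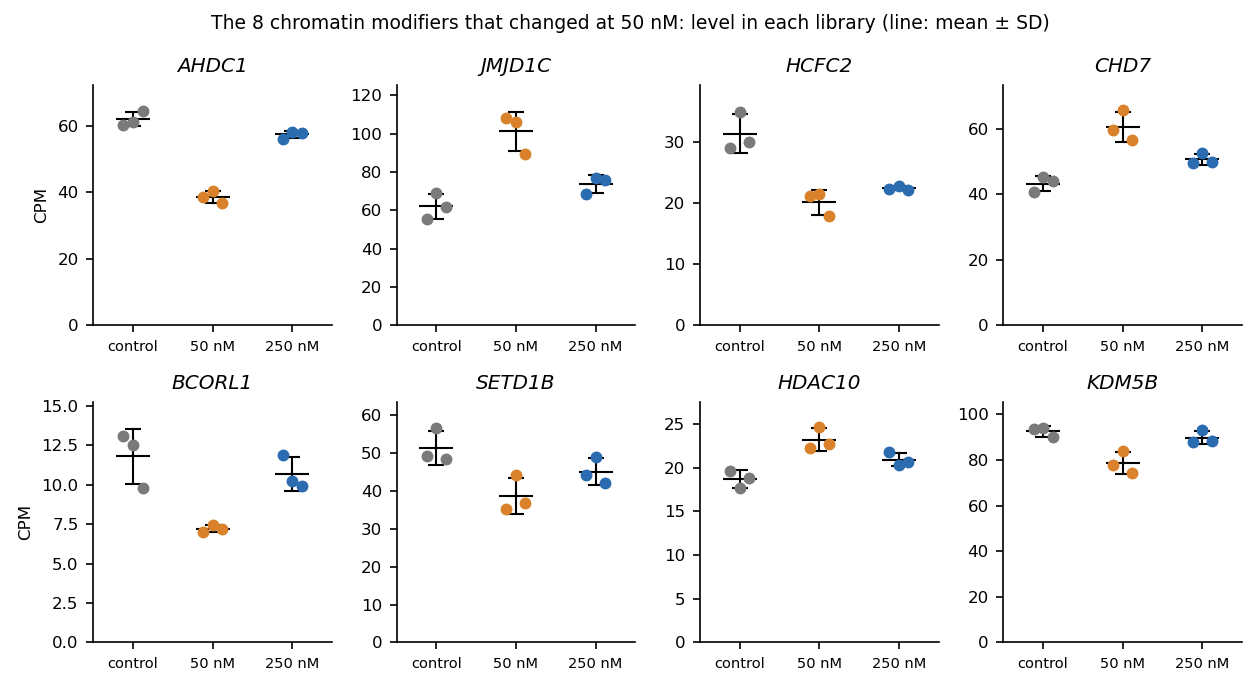
CPM in each library (vertical axis, from 0) of the 8 modifiers that changed at 50 nM, with control, 50 nM and 250 nM libraries from left to right; lines show mean ± SD of 3 libraries. The 50 nM points are apart from the control points in every panel, and the 250 nM mean lies between the means of the other groups in all 8. The genes were chosen by their difference between 50 nM and control.

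Of the 16 lysine demethylases tested, JMJD1C rose and KDM5B fell at 50 nM. JMJD1C is a large JmjC-domain protein related to KDM3A and KDM3B that was first described as a partner of the thyroid hormone receptor. It measured 55.5, 68.8 and 62.0 CPM in controls, 108, 106 and 89.5 CPM at 50 nM, and 68.4, 76.8 and 75.6 CPM at 250 nM. Every 50 nM library exceeded every other library, and 250 nM library 1 lay below the highest control. JMJD1C rose 1.63-fold at 50 nM, a log2 fold change of 0.71 ± 0.09 (95% interval 0.52 to 0.89, edgeR adjusted p = 0.000325). It was lower at 250 nM than at 50 nM, with a log2 fold change of -0.46 ± 0.09 (adjusted p = 0.0289), a call that ended on either FPKM scale and without 50 nM library 1 or 2, any single 250 nM library, or control library 3 (adjusted p up to 0.226). The neighbouring REEP3, which overlaps JMJD1C in that gene table, had a log2 fold change of -0.05 at 50 nM (adjusted p = 0.79).

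KDM5B, a demethylase of the H3K4 mark of active promoters, measured 93.7, 94.1 and 89.96 CPM in controls, 77.9, 83.8 and 74.4 CPM at 50 nM, and 88.0, 93.0 and 88.3 CPM at 250 nM. The 50 nM libraries were the 3 lowest. KDM5B fell by 0.23 ± 0.06 on the log2 scale (edgeR adjusted p = 0.0422), and the call ended in 9 of 18 alternatives, without any single library other than 50 nM library 2 among them (adjusted p up to 0.136). KDM4A, a demethylase of histone H3, had 79.7, 73.4 and 78.7 CPM at 50 nM, against 88.3, 90.7 and 92.2 CPM in controls. Those groups did not overlap, and the log2 fold change of -0.23 ± 0.06 lay just outside the threshold (adjusted p = 0.0502). KDM5C, a close relative of KDM5B, had 156, 167 and 157 CPM at 50 nM, against 148, 145 and 140 CPM in controls, also without overlap (adjusted p = 0.16).

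The other lysine demethylases gave no call by edgeR. KDM1A, which demethylates histone H3 within the CoREST complex, was the most abundant of them at 31.3 FPKM, and its log2 fold changes were -0.01 at 50 nM and 0.04 at 250 nM. KDM8, a JmjC-domain protein known as JMJD5, had 3.30, 4.47 and 4.73 CPM at 50 nM and 4.01, 3.61 and 5.04 CPM at 250 nM, against 3.71, 3.19 and 2.83 CPM in controls. Its log2 fold changes of 0.36 ± 0.18 and 0.38 ± 0.18 were the largest of the uncalled demethylases, and at this low level the standard errors were wide.

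Of the 15 lysine methyltransferases, SETD1B fell at 50 nM. SETD1B is the catalytic subunit of one of the SET1 complexes that write the H3K4 mark which KDM5B removes. It measured 49.2, 56.7 and 48.5 CPM in controls, 35.2, 44.2 and 36.9 CPM at 50 nM, and 44.2, 49.1 and 42.1 CPM at 250 nM. The highest 50 nM library was below the lowest control, and the 250 nM libraries overlapped both groups. SETD1B fell by 0.41 ± 0.09 on the log2 scale (edgeR adjusted p = 0.0222), and the call ended without 50 nM library 1, without control library 2 and with the groups compared fitted alone (adjusted p up to 0.112). The MLL family members KMT2B, KMT2C, KMT2D and KMT2E had log2 fold changes of 0.06, 0.07, -0.09 and 0.15 at 50 nM, and none was called.

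EZH1 and EZH2 are the alternative catalytic subunits of Polycomb repressive complex 2, which methylates histone H3 at repressed genes. EZH1 had 28.8, 32.8 and 30.1 CPM at 50 nM, against 35.6, 36.9 and 34.4 CPM in controls, with a log2 fold change of -0.22 ± 0.08 (edgeR adjusted p = 0.178). EZH2 had 32.0, 35.6 and 32.2 CPM at 50 nM and 33.9, 35.1 and 32.4 CPM at 250 nM, against 35.8, 37.4 and 37.2 CPM in controls. Both lay below the controls without overlap at 50 nM and neither passed. SETD3, a methyltransferase of actin histidine, had 35.9, 39.1 and 34.0 CPM at 50 nM and 38.6, 37.5 and 38.9 CPM at 250 nM, against 40.7, 43.97 and 40.95 CPM in controls, also without overlap (adjusted p = 0.134 at 50 nM). All 4 arginine methyltransferases tested had estimates below 0 at both concentrations, which share their controls. Over all genes, 49.4% of the estimates at 50 nM and 48.2% at 250 nM lay above 0. PRMT9 had log2 fold changes of -0.21 at 50 nM and -0.12 at 250 nM, and PRMT5, the main symmetric dimethylating enzyme, -0.10 and -0.08.

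Of the 13 deacetylases, HDAC10 rose at 50 nM. HDAC10, a class IIb enzyme known as a polyamine deacetylase, measured 19.6, 17.7 and 18.9 CPM in controls, 22.2, 24.7 and 22.7 CPM at 50 nM, and 21.7, 20.3 and 20.7 CPM at 250 nM. The 3 groups did not overlap, and the 250 nM libraries lay in the middle. HDAC10 rose by 0.31 ± 0.08 on the log2 scale (edgeR adjusted p = 0.0336), and the call ended in 9 of 18 alternatives, among them both FPKM scales and the fits without 50 nM library 1 or 2, 250 nM library 2 or 3, or control library 2 or 3 (adjusted p up to 0.149). At 250 nM the log2 fold change was 0.16 ± 0.08 (adjusted p = 0.573).

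SIRT1, a nuclear deacetylase that depends on NAD, had 18.7, 17.9 and 12.8 CPM at 50 nM and 17.2, 15.7 and 14.5 CPM at 250 nM, against 19.4, 20.7 and 21.2 CPM in controls. All 6 estradiol libraries were below the controls, and neither log2 fold change passed, -0.31 ± 0.12 at 50 nM (edgeR adjusted p = 0.199) and -0.37 ± 0.12 at 250 nM (adjusted p = 0.312). The 50 nM spread came mainly from library 3. The class I enzymes varied little: HDAC1 had 160, 162 and 168 CPM at 50 nM, against 165, 165 and 169 CPM in controls, and HDAC2 had 76.8, 78.0 and 80.3 CPM at 50 nM, against 81.7, 82.0 and 89.2 CPM in controls, with a log2 fold change of -0.11 ± 0.06 (adjusted p = 0.402).

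Of the 9 remodellers, CHD7 rose at 50 nM. CHD7, a chromodomain ATPase mutated in CHARGE syndrome in humans, measured 40.6, 45.1 and 44.0 CPM in controls, 59.7, 65.6 and 56.5 CPM at 50 nM, and 49.5, 52.6 and 50.0 CPM at 250 nM. The 3 groups did not overlap, with 250 nM in the middle. CHD7 rose by 0.49 ± 0.07 on the log2 scale at 50 nM (edgeR adjusted p = 0.000921). Neither the 250 nM estimate of 0.23 ± 0.07 against control (95% interval 0.08 to 0.38, adjusted p = 0.273) nor that of -0.26 ± 0.07 against 50 nM (adjusted p = 0.245) passed. The other CHD genes were not called: CHD3, the most abundant, had a log2 fold change of 0.12 at 50 nM, CHD8 -0.12 and CHD1 -0.15. ARID1A and ARID1B, the alternative DNA-binding subunits of the BAF complex, had log2 fold changes of -0.11 and 0.08.

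**Figure D3:**
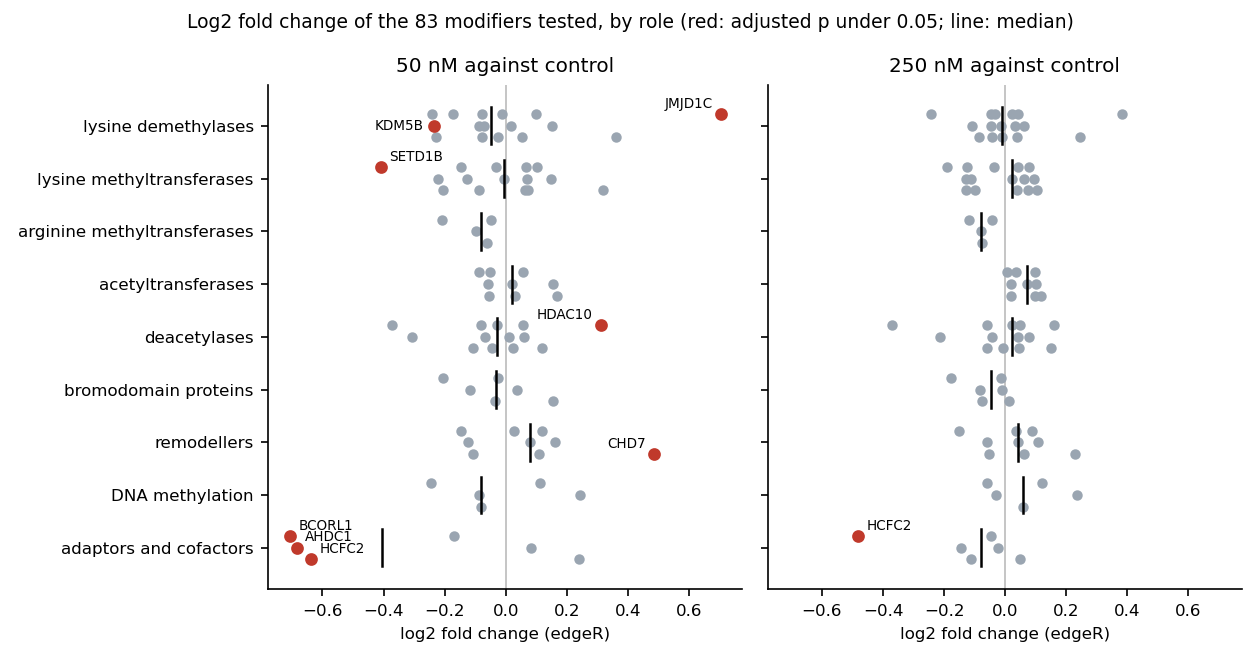
Log2 fold change by edgeR (horizontal axis) of the 83 modifiers tested, one point per gene, by role, at 50 nM (left panel) and 250 nM (right panel) against the same controls; vertical ticks are role medians and red points passed an adjusted p of 0.05. At 50 nM 8 points are red, among them the outermost on both sides, while some grey points lie further out than the red points of KDM5B and HDAC10; at 250 nM HCFC2 is the one red point.

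None of the 9 acetyltransferases was called at either concentration. EP300 and CREBBP, the paired coactivators of the estrogen receptor and many other factors, had log2 fold changes of -0.09 and 0.02 at 50 nM, and 0.02 and 0.12 at 250 nM. KAT2A, the catalytic subunit of SAGA, had 82.98, 89.6 and 93.2 CPM at 50 nM, against 81.3, 82.9 and 74.8 CPM in controls (edgeR adjusted p = 0.235). KAT5, of the TIP60 complex, had 42.5, 42.6 and 46.8 CPM at 50 nM, against 39.0, 38.6 and 39.7 CPM in controls (adjusted p = 0.202). Both lay above the controls at 50 nM without overlap. At 250 nM all 9 acetyltransferases had estimates above 0, between 0.006 and 0.12 on the log2 scale, none of which passed. Over all genes, 48.2% of the estimates at 250 nM lay above 0, and this role was singled out after its values were seen.

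Among the bromodomain proteins, BRD2 and BRD3, the related BET readers of acetylated histones, had estimates of opposite sign. BRD2 had 74.6, 78.2 and 74.2 CPM at 50 nM, against 67.4, 73.6 and 62.7 CPM in controls, and BRD3 had 38.2, 38.5 and 34.8 CPM at 50 nM, against 41.9, 46.1 and 40.5 CPM in controls. Neither overlapped its controls, and neither the log2 fold change of 0.16 ± 0.07 for BRD2 (edgeR adjusted p = 0.26) nor that of -0.20 ± 0.08 for BRD3 (adjusted p = 0.207) passed. BRD1, a scaffold of histone acetyltransferase complexes, had 73.0, 73.2 and 67.2 CPM at 250 nM, against 77.6, 83.8 and 80.2 CPM in controls (adjusted p = 0.349). BRD7, a subunit of the PBAF remodeller, was the steadiest of the 83 genes tested, with a coefficient of variation of 2.53% over 9 libraries; BCORL1 was the most variable with 24.5%.

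No enzyme of DNA methylation was called. TET2, which oxidises methylated cytosine, had 48.1, 50.9 and 44.7 CPM at 50 nM, against 50.2, 63.8 and 56.4 CPM in controls, and control library 1 overlapped the 50 nM group. Its log2 fold change of -0.24 ± 0.08 did not pass (edgeR adjusted p = 0.142), except without control library 1 (adjusted p = 0.0424). DNMT3B, a de novo methyltransferase, had 6.61, 6.80 and 6.82 CPM at 50 nM and 6.504, 6.88 and 6.70 CPM at 250 nM, against 5.61, 5.99 and 5.47 CPM in controls. All 6 estradiol libraries were above the controls, with log2 fold changes of 0.24 ± 0.11 and 0.23 ± 0.11 that did not pass (adjusted p = 0.273 and 0.561).

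At 250 nM, 1 of 83 modifiers changed against control by edgeR, HCFC2, which fell, beside 0.308% of all genes called and 0.105% called lower. HCFC2 was named one by one and was known from earlier results of these data. Among the families taken by symbol start, 0 of 70 changed. At an unadjusted p under 0.05 there were 8 of 83, beside 8.67% of all genes, and in 16 of 83 the groups did not overlap, beside 15.5%. Of these, 9 were higher and 7 lower (10.8% and 8.43%), beside 7.75% and 7.76% of all genes. The median log2 fold change was 0.006, against -0.005 over all genes. For each of the 8 genes that changed at 50 nM, the 250 nM mean lay between those of the other groups. The log2 fold change at 250 nM was 75.5% of that at 50 nM for HCFC2, 51.8% for HDAC10, 47.0% for CHD7 and 46.5% for SETD1B, and it was 34.9% for JMJD1C, 20.3% for BCORL1, 19.3% for KDM5B and 16.3% for AHDC1. The comparisons share their controls, and the 8 genes were chosen by their difference between 50 nM and control. The place of the 250 nM means and these shares are therefore a description. The same count was not made over all genes called at 50 nM.

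Set directly against 50 nM, 2 of 83 modifiers differed at 250 nM by edgeR, beside 0.325% of all genes. AHDC1 was higher, beside 0.187% of all genes called higher, and JMJD1C was lower, beside 0.138% called lower. Both are from the genes named one by one, some of which were picked with earlier results known. No gene of the families taken by symbol start was called here. At an unadjusted p under 0.05 there were 10 of 83, beside 5.68% of all genes, and in 16 of 83 the groups did not overlap, beside 11.5%. For the other 6 genes that changed at 50 nM, a difference between the concentrations was not shown. In a test of any difference among the 3 groups, 5 of 83 modifiers passed, AHDC1, JMJD1C, HCFC2, CHD7 and BCORL1, beside 1.86% of all genes; CHD7 was the only one of the 5 from the families taken by symbol start.

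**Figure D4:**
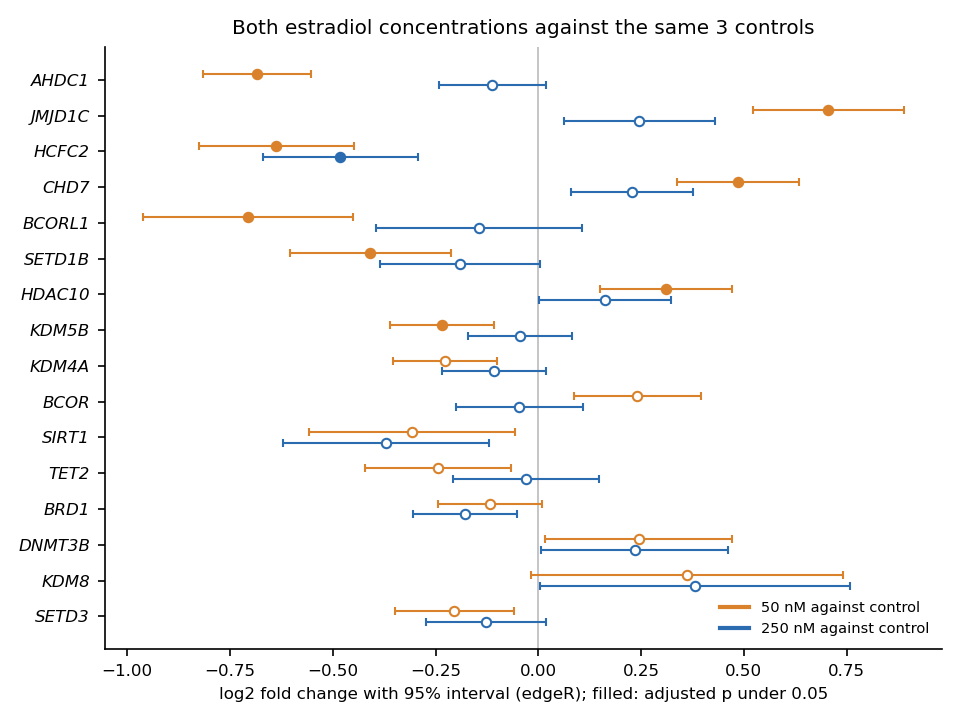
Log2 fold change with 95% interval (horizontal axis, edgeR) at 50 nM and 250 nM against the same 3 controls, for the 8 modifiers that changed and 8 further modifiers of low p; filled points passed an adjusted p of 0.05. The 2 intervals lie apart for AHDC1, JMJD1C and BCORL1, and those of HCFC2, SIRT1 and DNMT3B overlap widely.

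Paralogs were compared by the ratio of their FPKM values in each library, by an exact two-sided permutation test, which with 3 against 3 libraries cannot give a p under 0.1. The ratio of BCORL1 to BCOR was 0.110 ± 0.00928 at 50 nM (exact p = 0.1) and 0.197 ± 0.0179 at 250 nM (exact p = 0.5), against 0.210 ± 0.0205 in controls (SD, n = 3 each). The 50 nM ratios were the 3 lowest. The ratio of HCFC2 to HCFC1 was 0.0843 ± 0.00599 at 50 nM and 0.0965 ± 0.00131 at 250 nM, against 0.139 ± 0.00760 in controls (exact p = 0.1 for both). All 6 estradiol ratios lay below the control ratios. BCORL1 and HCFC2 were called in these same libraries and known from earlier results, so their ratios are no separate evidence. ARID1B to ARID1A stood at 0.628 ± 0.0179 at 50 nM and 0.590 ± 0.0211 at 250 nM, against 0.552 ± 0.00479 in controls. Neither group overlapped the controls (exact p = 0.1 for both). CREBBP to EP300 was 0.432 ± 0.00891 at 50 nM and 0.429 ± 0.00474 at 250 nM, against 0.402 ± 0.0158 in controls. Both were apart from the controls as well (exact p = 0.1 for both). EZH1 to EZH2 was 0.437 ± 0.00790 at 50 nM (exact p = 0.2), against 0.461 ± 0.0181 in controls. At 250 nM it was 0.459 ± 0.0306 (exact p = 0.9). The p-values of these 5 pairs were not adjusted, since adjustment can only raise them.

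**Figure D5:**
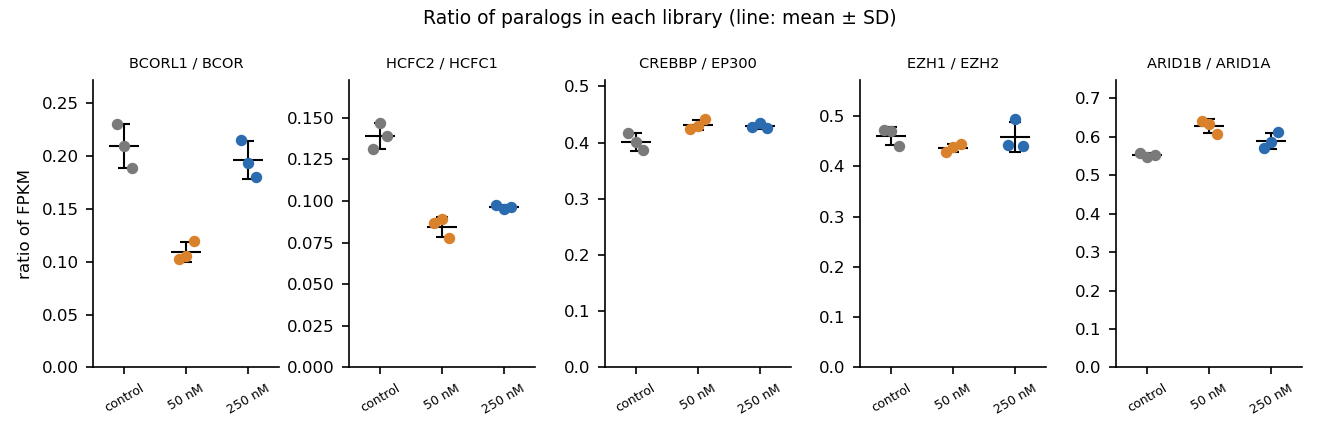
Ratio of FPKM values of 5 pairs of paralogs in each library (vertical axes, from 0, each panel on its own scale), with control, 50 nM and 250 nM libraries from left to right and lines at mean ± SD of 3 libraries. The BCORL1 to BCOR ratio is low at 50 nM alone, and the HCFC2 to HCFC1 ratio is below control at both concentrations.

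The modifiers work with partner proteins that the symbol rule does not take, and 173 such symbols were looked for, of which 139 had a row and 137 were tested. At 50 nM 6 of 137 changed by edgeR, or 4.38%, 1 higher and 5 lower, beside 3.25% of all genes called, 1.55% higher and 1.7% lower; the partners' share lies near that of all genes. JADE2, a scaffold of the HBO1 acetyltransferase complex, fell by 0.46 ± 0.07 on the log2 scale to 27.5 ± 1.79 CPM at 50 nM, against 37.9 ± 2.30 CPM in controls (SD, n = 3 each, adjusted p = 0.00284). RBBP5, a core subunit of the SET1 and MLL complexes in which SETD1B works, had 21.2, 22.2 and 22.4 CPM at 50 nM, against 25.4, 27.99 and 27.1 CPM in controls, and fell by 0.29 ± 0.07 (adjusted p = 0.0416). At 250 nM RBBP5 had a log2 fold change of -0.27 ± 0.07 (adjusted p = 0.192).

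UHRF2, a reader of modified cytosine, fell by 0.34 ± 0.07 on the log2 scale (edgeR adjusted p = 0.0123), BCL7A, a BAF subunit, by 0.44 ± 0.11 (adjusted p = 0.0421), and ING2, a reader in the SIN3A deacetylase complex, by 0.35 ± 0.09 (adjusted p = 0.0498). PHC2, a Polycomb repressive complex 1 subunit, rose by 0.25 ± 0.05 (adjusted p = 0.0159). JADE2 kept its call in 18 of 18 alternatives, while that of ING2 ended in 14, BCL7A in 9, RBBP5 in 8, PHC2 in 6 and UHRF2 in 2. At 250 nM 0 of 137 partners passed by edgeR, and 2 did by DESeq2. At an unadjusted p under 0.05 there were 15, or 10.9%, beside 8.67% of all genes.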

How the data were processed

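The values are the estimated counts of each gene in each library and the FPKM values, both as the authors deposited them. Per the submitters' processing notes, Trim Galore, TopHat2 2.1.1, Cufflinks and Cuffdiff were used; no role, genome build or annotation is given in the sources used here. Deposited counts are whole numbers, and the most frequent count above 0 is 4, so about 4 units were taken as 1 fragment (13679602 to 18068616 fragments per library).

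Genes were kept by filterByExpr (minimum count 10) and tested with edgeR 4.0.16 in R 4.3.3 (quasi-likelihood test, TMM factors, all 9 libraries in 1 fit, no covariates). Benjamini-Hochberg adjustment ran over all 12324 genes of each comparison. CPM values use the TMM factors; FPKM values served to compare genes. Libraries of 1 group differed by more than sampling noise (chi-square over degrees of freedom at least 3.08), so none was merged. The method was tested on simulated data.

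The members and lists were chosen with earlier results of these data known, BCORL1 and HCFC2 among them. The rule for named genes took those called, partners called, and the 2 of lowest p in each of 9 roles of each comparison. It also took the 5 highest and 5 lowest levels, and paralogs of the genes named. CHD1L, SETD6, KAT6A, BRD8 and TET3 met this rule, were not called, and are not described. EZH1, EZH2, ARID1A and ARID1B come from the list of paralog pairs, though the rule did not name them. KDM4A, KDM5C, KDM1A, ASXL2, BRD7, the KMT2 genes and HDAC1 to HDAC3 were added after their values were seen. Alternatives were DESeq2 1.42.0, RLE factors, a replicate block, only the groups compared, no filter, a filter of 5 CPM in at least 3 libraries, counts divided by 4, limma 3.58.1 on log2(FPKM + 1) and log2(FPKM + 0.1), and leaving out each library. A search of promoters for motifs was planned and not run.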

Additional observations from a re-analysis of the deposited data

How the results depend on the processing

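The calls of AHDC1, JMJD1C, HCFC2, CHD7 and BCORL1 at 50 nM, and that of AHDC1 between the concentrations, held in 18 of 18 alternatives. The 8 modifiers called at 50 nM became 5 with only the groups compared and 5 to 9 when a library was left out; the 6 partners became 2 with only the groups compared, 3 on log2(FPKM + 1) and 1 to 8 without a library. At 250 nM the 1 modifier became 0 on log2(FPKM + 1) and 0 on log2(FPKM + 0.1), and 0 to 1 without a library, and 2 partners were called by DESeq2. Between the concentrations the 2 modifiers became 4 by DESeq2, 1 on log2(FPKM + 1), 1 on log2(FPKM + 0.1) and 1 to 3 without a library, and for any difference the 5 became 10 by DESeq2, 3 on log2(FPKM + 1) and 3 on log2(FPKM + 0.1). BCORL1 passed between the concentrations with no filter, by DESeq2 and without control library 3 (adjusted p 0.00494 to 0.396 over all alternatives). The median log2 fold change of the modifiers at 50 nM was -0.0739 on log2(FPKM + 1), -0.0832 on log2(FPKM + 0.1) and -0.0439 to 0.00309 without a library; at 250 nM it was -0.0246 on log2(FPKM + 1), -0.0262 on log2(FPKM + 0.1) and -0.0315 to 0.0519 without a library; between the concentrations it was 0.0314, 0.0326 and -0.00842 to 0.0410. The FPKM values were not scaled by the TMM factors, which were 1.01 to 1.03 in controls and 0.972 to 0.997 at 50 nM. A shift common to all genes can thus be part of the medians on the FPKM scales, and its size was not tested. PRMT5, not called, ran from -0.0401 to 0.0832 between the concentrations without a library. With a replicate block 9, 1 and 2 modifiers were called at 50 nM, at 250 nM and between the concentrations, and 6 for any difference. Over all genes tested, same-numbered libraries did not deviate together (correlations -0.0319 to 0.0359). Such a measure over all genes cannot exclude that equal numbers share a culture or day, which the labels do not state. Apart from the fewer libraries in some fits, the causes were not tested. With 3 libraries a group and a median standard error of 0.0733 for the modifiers, small changes were not detectable, and the exact test of ratios cannot go below 0.1.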
